A study of Arabidopsis thaliana with 12 samples.

Results

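Cuticular wax synthesis genes of Arabidopsis thaliana are described here across 4 groups of seedlings: CER1, CER2, CER3, CER4, CER6, KCS1, WSD1 and SHN1. They were taken by locus from a table of read counts for 32673 genes, and all 8 loci were present. Whole seedlings of the Nossen (No-0) accession, aged 7 days, were either wild type or carried 35S::KNAT1, in which the constitutive viral 35S promoter drives the homeobox gene KNAT1. Every seedling first spent 18 h in liquid medium with 10 μM paclobutrazol (PAC), an inhibitor of gibberellin synthesis. They then spent 5 h either in PAC alone or in PAC with 100 μM of the gibberellin GA3, so no group was free of PAC. Each of the 4 combinations of genotype and medium had 3 libraries. The labels do not say whether 35S::KNAT1 was a single line or whether replicates were separate cultures, so the p-values rest on how far the samples of a group lay apart, a spread that may be technical.

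Cuticular wax is the mixture of very long chain lipids that seals the surface of the shoot against water loss. It is made in epidermal cells, where fatty acids are elongated in the endoplasmic reticulum and then enter either a branch that yields aldehydes and alkanes or a branch that yields primary alcohols and wax esters. CER6 and KCS1 encode condensing enzymes of elongation, and CER2 encodes a protein that extends the reach of CER6 to the longest chains. CER1 and CER3 encode partners in alkane formation, CER4 the reductase that makes primary alcohols, WSD1 the synthase that joins alcohols and acids into esters, and SHN1 (WIN1) a transcription factor that activates cuticle genes.

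On the TAIR10 build, as the count table gives them, CER1 (AT1G02205) lay at chr1:418748-422438 on the plus strand and CER3 (AT5G57800, named FLP1 in the table) at chr5:23420209-23424052 on the plus strand. CER4 (AT4G33790) lay at chr4:16204157-16207947 on the minus strand, and WSD1 (AT5G37300) at chr5:14767499-14770249 on the plus strand. CER6 (AT1G68530, named CUT1 in the table) lay at chr1:25712588-25714807 and KCS1 (AT1G01120) at chr1:57269-59167, both on the minus strand. SHN1 (AT1G15360) lay at chr1:5283538-5284673 on the plus strand. CER2 (AT4G24510) lay at chr4:12660749-12662656 on the plus strand, and 96 bases of it overlapped ATR1 (AT4G24520), a gene on the minus strand. Reads in that overlap cannot be assigned, since the strand setting of the counting is not given in the sources used here. The other 7 loci overlapped no gene of the table.

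The promoters of 3 of these genes are shown because CER1 and CER3, whose products work together, responded unlike each other, and because CER4 held the one match among the motifs searched. Each is the run of 300 bases that ends just before the start RefSeq gives the gene on TAIR10.1, read 5′ to 3′ on the gene's own strand from the Columbia reference, not from Nossen. Capitals mark the match TGACAG.
CER1, chr1:418116-418415, plus strand: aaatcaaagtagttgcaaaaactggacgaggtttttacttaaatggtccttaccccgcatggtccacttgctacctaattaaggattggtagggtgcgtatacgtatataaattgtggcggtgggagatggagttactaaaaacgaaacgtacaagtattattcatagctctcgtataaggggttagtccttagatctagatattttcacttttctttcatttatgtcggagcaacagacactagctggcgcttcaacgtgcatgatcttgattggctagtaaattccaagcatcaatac
CER3, chr5:23419884-23420183, plus strand: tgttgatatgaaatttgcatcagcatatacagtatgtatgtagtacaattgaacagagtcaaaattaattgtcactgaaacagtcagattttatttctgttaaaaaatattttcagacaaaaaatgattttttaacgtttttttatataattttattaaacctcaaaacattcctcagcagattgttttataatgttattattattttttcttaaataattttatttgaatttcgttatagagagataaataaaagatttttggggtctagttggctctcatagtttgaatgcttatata
CER4, chr4:16207957-16208256, minus strand: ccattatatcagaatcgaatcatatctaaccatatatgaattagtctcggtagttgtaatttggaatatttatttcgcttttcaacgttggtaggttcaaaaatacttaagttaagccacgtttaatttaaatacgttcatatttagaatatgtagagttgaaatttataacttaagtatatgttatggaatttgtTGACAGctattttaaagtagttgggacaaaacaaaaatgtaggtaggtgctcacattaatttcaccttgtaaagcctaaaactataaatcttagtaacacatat
On both strands of the windows of all 8 genes, 3 motifs were searched: the L1 box of epidermal genes as TAAATGCA or TAAATGTA, the core TGACAG of sites bound by KNOX proteins such as KNAT1, and the GCC box GCCGCC of ethylene response factors. TGACAG stood in the CER4 window, starting 104 bases before the RefSeq start, and no other match was present in the 8 windows. Among 27443 promoter windows of the same length, 6.88% held TGACAG, 5.51% the L1 box and 2.26% the GCC box. These matches describe letters in a window and say nothing about binding.

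The 12 libraries held between 9232836 and 14053594 counts. Of the 32673 genes, 19879 passed the filter on low counts and were tested, among them 6 of the 8 wax genes, while WSD1 and SHN1 fell below it. KNAT1 checked the labels, at 20.7 ± 3.55 CPM (counts scaled to library size) in wild type and 423 ± 30.8 in 35S::KNAT1 in PAC (mean ± SD, n = 3), and 22.2 ± 0.459 and 437 ± 42.2 in PAC+GA3. A ribosomal RNA gene took 0.488% and 0.347% of the counts in wild type in PAC replicates 2 and 3 and 1.44% in 35S::KNAT1 in PAC+GA3 replicate 1, against at most 0.197% elsewhere. The same 3 libraries held the most organelle reads, and the results were also computed without them. That setting leaves only replicate 1 of wild type in PAC.

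In 35S::KNAT1, CER1 fell to 0.389 of its wild-type level in PAC and to 0.418 in PAC+GA3, and CER2 fell to 0.701 and 0.62. CER6 and KCS1 fell in PAC+GA3, to 0.762 and 0.710 of wild type, and did not pass in PAC, although the interaction called neither; the KCS1 call was lost in 6 of 20 alternatives. CER3, the partner of CER1, did not pass the test in either medium, nor did CER4. None of the 6 tested genes passed the test for GA3 in either genotype. WSD1 and SHN1 were at or close to 0 counts.

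**Figure D1:**
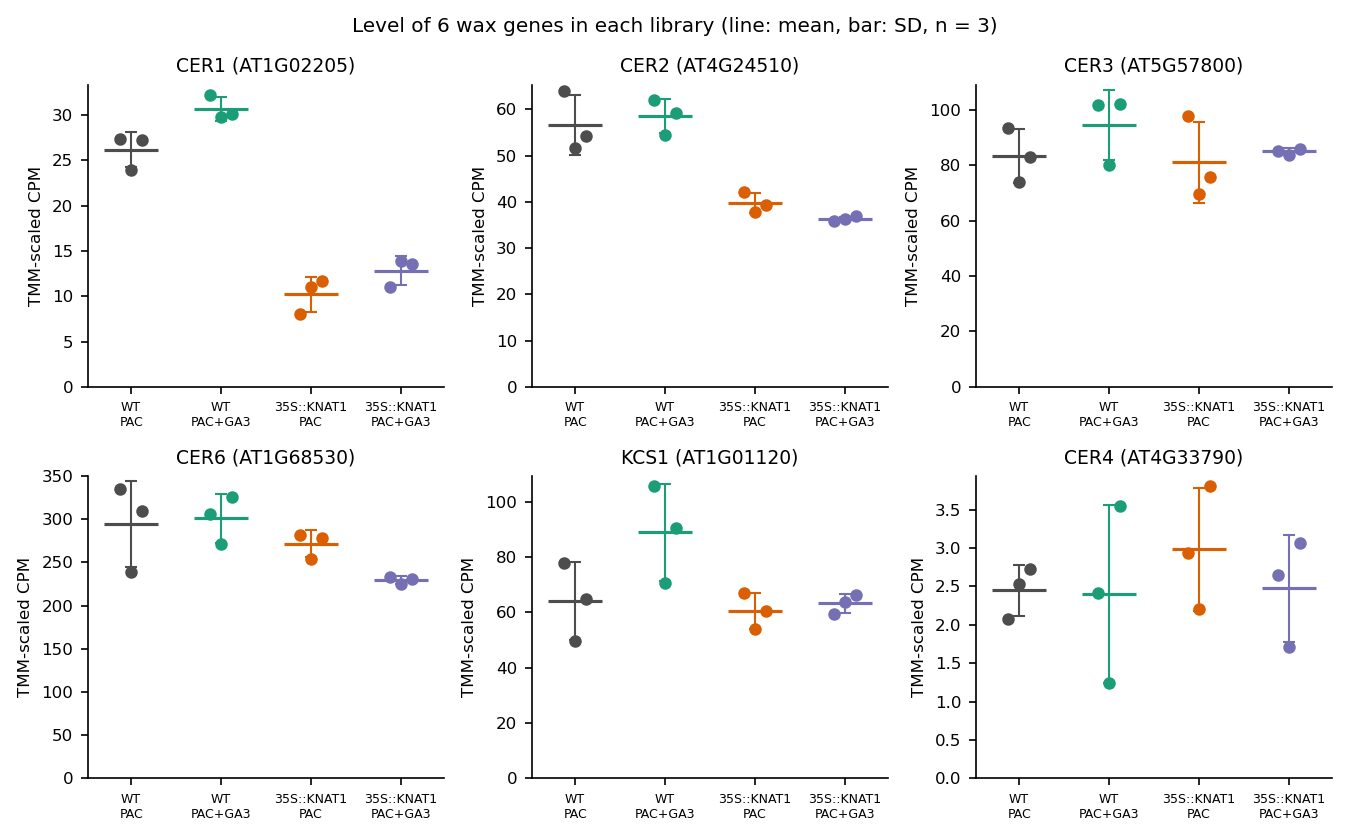
Level of the 6 tested wax genes in each library, in TMM-scaled CPM on linear axes that start at 0, by genotype and medium; points are libraries, lines means and bars SDs (n = 3). CER1 and CER2 libraries of 35S::KNAT1 all lie below those of wild type, while CER3 libraries overlap across the groups.

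CER6, the main condensing enzyme of wax elongation, had the highest level per length of the wax genes. In wild type its replicates stood at 335, 239 and 309 CPM in PAC and at 306, 271 and 326 in PAC+GA3. In 35S::KNAT1 they stood at 282, 254 and 279 CPM in PAC and at 233, 225 and 231 in PAC+GA3. The overexpressor in PAC+GA3 was below every other library, whereas the remaining groups overlapped. The genotype difference in CER6 was -0.12 ± 0.11 on the log2 scale in PAC (± SE, edgeR quasi-likelihood test, adjusted p = 0.480). In PAC+GA3 CER6 fell by 0.39 ± 0.11 (log2, edgeR, adjusted p = 0.0120), and without wild type in PAC+GA3 replicate 3 the difference was -0.33 with an adjusted p of 0.0550. GA3 gave a log2 difference of 0.03 ± 0.11 in wild type and -0.24 ± 0.11 in 35S::KNAT1 (95% interval -0.47 to -0.01), the latter with an edgeR adjusted p of 0.861.

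KCS1, a condensing enzyme that acts in wax and other very long chain lipids, spread widely among the wild-type replicates. They stood at 78, 49.9 and 64.7 CPM in PAC and at 106, 70.6 and 90.7 in PAC+GA3. Those of 35S::KNAT1 stood at 67.2, 54.2 and 60.4 CPM in PAC and at 59.6, 63.7 and 66.5 in PAC+GA3. Wild type in PAC+GA3 was thus the high group for KCS1: its libraries overlapped wild type in PAC but lay above those of 35S::KNAT1 in the same medium. With GA3 the KCS1 log2 difference in wild type was 0.47 ± 0.16 (95% interval 0.13 to 0.82), which did not pass over all genes (edgeR, adjusted p = 0.432, or 0.0570 with the replicate number as a block). Between same-numbered libraries KCS1 was higher with GA3 in 3 of 3 wild-type pairs, by 1.35, 1.42 and 1.4-fold, and in 2 of 3 pairs of 35S::KNAT1. In 35S::KNAT1 it was 0.06 ± 0.16 (95% interval -0.29 to 0.41). KCS1 fell by 0.49 ± 0.16 with the transgene in PAC+GA3 (log2, edgeR, adjusted p = 0.0352) and differed by -0.09 ± 0.16 in PAC (adjusted p = 0.754). Under the 20 alternatives its log2 difference in PAC+GA3 was lost as a call in 6, including without wild type in PAC+GA3 replicate 1 (-0.35, adjusted p = 0.129).

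CER2, needed for the longest wax acyl chains, was lower in every 35S::KNAT1 library. Wild-type replicates stood at 64, 51.7 and 54.2 CPM in PAC and at 62, 54.5 and 59.2 in PAC+GA3. Overexpressor replicates stood at 42.1, 37.7 and 39.4 CPM in PAC and at 35.9, 36.2 and 36.9 in PAC+GA3. Thus the genotypes did not overlap in either medium, and within 35S::KNAT1 the libraries with GA3 lay just below those without. CER2 fell by 0.51 ± 0.09 in PAC (log2, edgeR, adjusted p = 3.55e-04) and by 0.69 ± 0.09 in PAC+GA3 (adjusted p = 1.60e-05). The overlapping gene ATR1, a cytochrome P450 reductase, differed by -0.21 ± 0.08 in PAC and -0.06 ± 0.08 in PAC+GA3 without passing the test (edgeR, adjusted p = 0.0659 and 0.614). GA3 gave CER2 differences of 0.05 ± 0.09 in wild type and -0.13 ± 0.09 in 35S::KNAT1.

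CER1, which with CER3 forms the alkanes, had the greatest genotype difference among the 6 tested wax genes. Its wild-type replicates stood at 27.4, 23.9 and 27.2 CPM in PAC and at 32.2, 29.7 and 30.1 in PAC+GA3. Its 35S::KNAT1 replicates stood at 8.01, 11.0 and 11.6 CPM in PAC and at 11.0, 13.9 and 13.6 in PAC+GA3. The highest overexpressor library was therefore well under the lowest wild-type library. CER1 fell by 1.36 ± 0.13 in PAC (95% interval -1.63 to -1.09, log2, edgeR, adjusted p = 3.56e-07) and by 1.26 ± 0.12 in PAC+GA3 (adjusted p = 5.33e-07). All 20 alternatives kept both CER1 calls, with log2 differences from -1.46 to -1.21 in PAC. With GA3 CER1 differed by 0.23 ± 0.12 in wild type, where the 3 libraries lay above those in PAC, and by 0.33 ± 0.14 in 35S::KNAT1, where they overlapped. By same-numbered pairs CER1 was higher with GA3 in 3 of 3 in each genotype. Neither difference passed over all genes (edgeR, adjusted p = 0.585 and 0.791, or 0.398 and 0.436 with the replicate number as a block).

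CER3, the partner of CER1, showed no such separation. Wild-type replicates stood at 93.3, 73.9 and 82.8 CPM in PAC and at 102, 80.1 and 102 in PAC+GA3. Those of 35S::KNAT1 stood at 97.6, 69.5 and 75.9 CPM in PAC and at 85.2, 83.7 and 85.8 in PAC+GA3. All groups overlapped for CER3. The genotype difference was -0.04 ± 0.12 in PAC, with an interval of -0.30 to 0.22, and it was 0.05 under scaling by total counts. In PAC+GA3 it was -0.16 ± 0.12, with an interval of -0.42 to 0.10 (log2, edgeR, adjusted p = 0.847 in PAC and 0.397 in PAC+GA3). These intervals leave room for a small change, but they exclude one of the size seen for CER1.

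CER4, which makes the primary alcohols, was a low gene with 12 to 39 counts per library. Its replicates in wild type stood at 2.08, 2.54 and 2.73 CPM in PAC and at 2.41, 1.24 and 3.55 in PAC+GA3. In 35S::KNAT1 the replicates stood at 2.93, 2.20 and 3.81 CPM in PAC and at 2.65, 1.70 and 3.07 in PAC+GA3. The groups overlapped throughout, and at this depth the genotype interval ran from -0.40 to 0.94 in PAC (log2 difference of 0.27 ± 0.32, edgeR, adjusted p = 0.595). A CER4 difference in PAC of the size of that of CER2, in the direction in which CER2 moved, lay outside this interval. WSD1, the ester synthase, had 4, 1 and 4 counts in wild type in PAC and 2, 0 and 0 in PAC+GA3, and 0 in all 6 libraries of 35S::KNAT1. Summed over a group, WSD1 stood at 0.270 unscaled CPM in wild type in PAC (exact 95% interval 0.123 to 0.512) and 0.0559 in PAC+GA3 (0.00676 to 0.202). The 0 counts allow up to 0.0936 and 0.0892 CPM in 35S::KNAT1 in PAC and in PAC+GA3. In PAC, the pooled WSD1 interval of wild type therefore lay above the limit set for the overexpressor. The libraries were not compared by a test, and 1 of them in wild type held 1 count. In PAC+GA3 no difference was detectable at this depth. SHN1, the activator of cuticle genes, had 0 counts in all 12 libraries, which allows 0.0222 CPM over 134899859 counts. Intervals and limits cover counting error only.

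Per kilobase of exon, the order of levels in wild type in PAC began with CER6 at 113 ± 19.1 CPM per kb, above CER2 at 34.8 ± 3.98, CER3 at 32.2 ± 3.75 and KCS1 at 31.3 ± 6.86 (SD, n = 3). CER2, CER3 and KCS1 did not differ beyond their spread. CER1 followed at 7.28 ± 0.546, and CER4 at 1.25 ± 0.170 and WSD1 at 0.133 were the lowest of the genes with counts. In 35S::KNAT1 in PAC, CER6 stood at 104 ± 5.98 CPM per kb, CER3 at 31.3 ± 5.68, KCS1 at 29.5 ± 3.18 and CER2 at 24.4 ± 1.38. CER1 stood at 2.85 ± 0.539 and CER4 at 1.52 ± 0.411, so the gap between them was narrower than in wild type. Only CER1 of this pair passed the test for genotype in PAC. Exon lengths came from RefSeq TAIR10.1 and reads from Nossen, so levels between genes are approximate.

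The calls have to be read against the genotype effect on the whole transcriptome. In PAC 25.2% of all tested genes were called between the genotypes, 12.9% lower and 12.3% higher, and 2 of the 6 tested wax genes were lower and 0 higher. In PAC+GA3 25.5% were called, 13.6% lower and 12% higher, and 4 of the 6 were lower and 0 higher, or 2 lower without wild type in PAC+GA3 replicate 3. Libraries of the genotypes did not overlap for 40.4% of all genes in PAC and for 38.6% in PAC+GA3. The median log2 difference of the 6 tested wax genes was -0.10 in PAC and -0.44 in PAC+GA3, beside 0.00 and 0.01 for all genes. Under scaling by total counts the median over all genes became 0.10 in PAC and 0.12 in PAC+GA3, and the calls became 3865 higher and 1872 lower in PAC and 4007 higher and 2019 lower in PAC+GA3. CER1 and CER2 were called lower under that scaling too, whereas KCS1 in PAC+GA3 was not (-0.39, adjusted p = 0.0761) and in PAC turned to 0.01. Leaving out the 3 libraries of high ribosomal RNA share left only replicate 1 of wild type in PAC, so its calls are not counted here. Over all 20 alternatives, that setting included, the log2 difference of CER1 in PAC ran from -1.46 to -1.21. That of CER2 in PAC ran from -0.69 to -0.41.

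GA3 called few genes of any kind in these seedlings, 0.0453% of those tested in wild type and 0.111% in 35S::KNAT1, and none of the 6 tested wax genes. Before adjustment, 1 of the 6 had a p below 0.05 in wild type and 2 in 35S::KNAT1, against 1746 and 1116 of all genes. DESeq2 called 40 and 41 genes, again with 0 of the 6. With the replicate number as a block, edgeR called 94 and 81 in place of 9 and 22, and still 0 of the 6. GA3 libraries did not overlap PAC libraries for 11.8% of all genes in wild type and for 12.9% in 35S::KNAT1. The interaction, which asks whether GA3 acted differently in the genotypes, called 0% of genes with edgeR (363 at an unadjusted p below 0.05, 0 of the 6 wax genes) and 0 genes with DESeq2. Its widest departures among the wax genes were -0.41 ± 0.23 for KCS1 (95% interval -0.90 to 0.08) and -0.27 ± 0.15 for CER6 (-0.60 to 0.05), in log2. So the CER6 and KCS1 calls in PAC+GA3 are not shown to be particular to that medium.

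**Figure D2:**
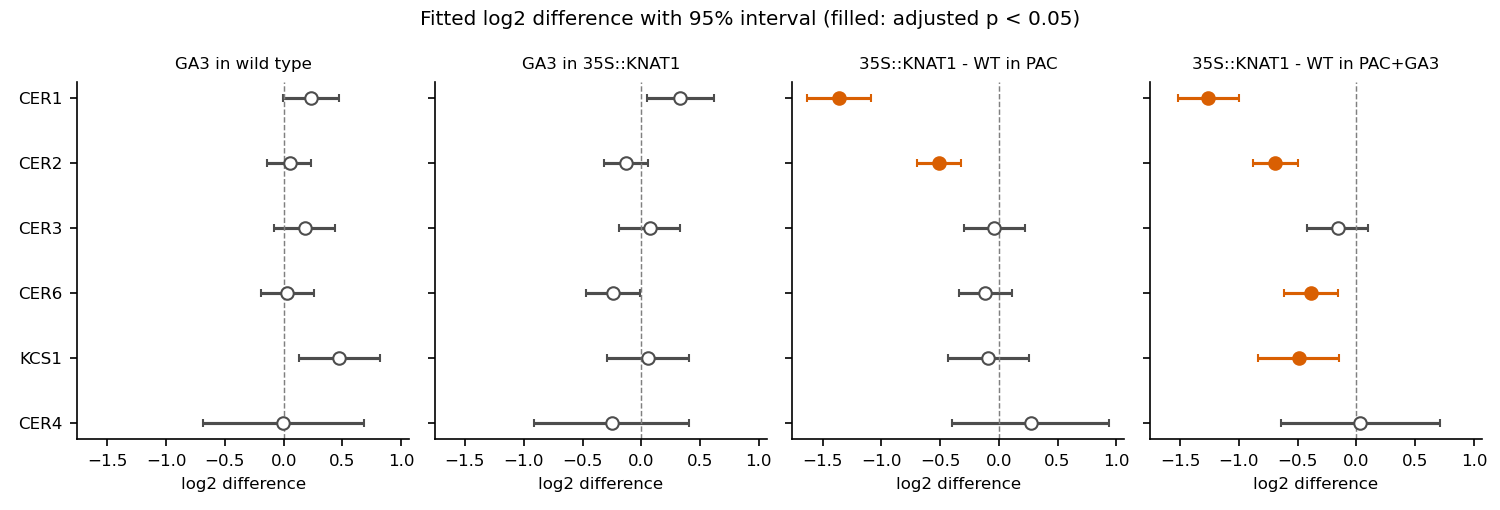
Fitted log2 difference of each tested wax gene in the 4 comparisons, with its 95% interval; filled points have an adjusted p below 0.05. CER1 is at -1.36 and -1.26 in the genotype panels, CER3 at -0.04 and -0.16, and no point is filled in the GA3 panels.

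Ratios between wax genes within a library do not depend on the scaling. All 15 pairs of the 6 tested genes were compared with exact two-sided permutation tests of mean log2 ratios, shuffling genotype within medium or medium within genotype, which gave 30 tests on shared genes. The shuffles ignored the replicate numbers, which may pair samples in most of the comparisons. A paired version, which has fewer arrangements and so a larger smallest p, was not run. With 35S::KNAT1, 9 of 15 ratios changed after adjustment over the 30: CER1 was lower relative to each of the other 5 genes, and CER2 relative to CER3, CER4, KCS1 and CER6. The 6 ratios among CER3, CER4, KCS1 and CER6 did not pass. The share of pairs of other genes that would pass with genotype was not computed. Leaving out the 3 libraries of high ribosomal RNA share left only replicate 1 of wild type in PAC, and 40 arrangements. So few arrangements can hardly give a ratio that passes after adjustment over the 30, so no outcome is read from that setting. CER1 per CER3 then stood at -1.11 in log2, beside -1.22 with all libraries.

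CER1 and CER3 make the clearest case, since their products act as partners. Wild-type libraries had 29.3, 32.3 and 32.8 CER1 reads per 100 CER3 reads in PAC and 31.6, 37.2 and 29.5 in PAC+GA3. Those of 35S::KNAT1 had 8.22, 15.9 and 15.3 in PAC and 12.9, 16.6 and 15.8 in PAC+GA3. Every overexpressor library was below every wild-type library, and the mean ratio fell to 0.429 of that in wild type (exact permutation p = 0.005, the smallest these 400 arrangements can give, adjusted p = 0.015). For CER2 per 100 CER6 reads, the means were 19.4 ± 2.09 and 19.5 ± 1.18 in wild type in PAC and PAC+GA3, and 14.6 ± 0.449 and 15.8 ± 0.375 in 35S::KNAT1 (SD, n = 3). This ratio fell to 0.784 (exact permutation p = 0.005, adjusted p = 0.015).

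With GA3, 5 of the 15 ratios changed after adjustment over the 30 tests. None of the wax genes passed on its own, but that adjustment ran over 19879 genes, so the outcomes are not comparable. The share of pairs of other genes that would pass with GA3 was not computed. KCS1 reads per 100 CER6 reads numbered 23.3, 20.9 and 20.9 in wild type in PAC and 34.5, 26.1 and 27.8 in PAC+GA3. In 35S::KNAT1 they numbered 23.8, 21.4 and 21.7 in PAC and 25.6, 28.3 and 28.8 in PAC+GA3. The GA3 libraries were thus higher in both genotypes without overlap, and the ratio rose 1.29-fold (exact permutation p = 0.005, adjusted p = 0.015). CER1 rose relative to CER2 (1.25-fold, adjusted p = 0.015) and to CER6 (1.3-fold, adjusted p = 0.0231), and CER3 relative to CER6 (1.17-fold, adjusted p = 0.0231). CER2 fell to 0.808 relative to KCS1 (adjusted p = 0.015). These permutation tests show unequal change of the paired genes and not which of them moved. They left out any pairing of same-numbered libraries across the media, so their p-values may be too small or too large. The number of GA3 ratios that passed went from 5 to 2 without 35S::KNAT1 in PAC+GA3 replicate 2 or 3, and to 3 without wild type in PAC replicate 1 or 3 or wild type in PAC+GA3 replicate 1.

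**Figure D3:**
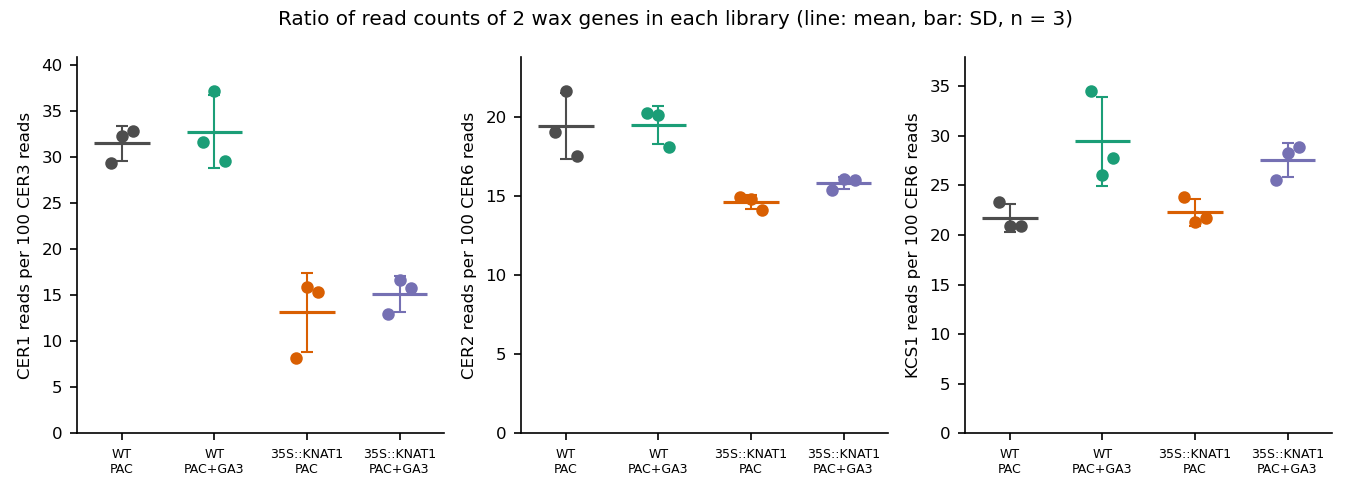
Read counts of one wax gene per 100 reads of another in each library, on linear axes that start at 0; points are libraries, lines means and bars SDs (n = 3). CER1 per CER3 and CER2 per CER6 are lower in 35S::KNAT1, and KCS1 per CER6 is higher with GA3 in both genotypes.

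Among genes that work beside them, the other elongation proteins moved both ways with 35S::KNAT1. Of 15 tested, 1 rose and 4 fell in PAC, and 1 rose and 3 fell in PAC+GA3 (median log2 difference -0.04 and -0.22). Each list count here and below is to be read beside the shares of all tested genes. These were 12.3% higher and 12.9% lower in PAC, and 12% higher and 13.6% lower in PAC+GA3. CER26 and CER26-LIKE, relatives of CER2, fell by 0.49 ± 0.13 and 0.79 ± 0.16 in PAC and by 0.72 ± 0.13 and 0.69 ± 0.16 in PAC+GA3. CER26 in PAC was not called without wild type in PAC replicate 1 (-0.35, adjusted p = 0.0570). Nor was it called without 35S::KNAT1 in PAC replicate 2 (-0.45, adjusted p = 0.0560). CER26-LIKE in PAC stood at -0.70 without the 3 libraries of high ribosomal RNA share, where wild type in PAC kept only replicate 1. LACS1, which activates the acyl chains with coenzyme A, rose by 0.52 ± 0.09 and 0.45 ± 0.09. All adjusted p-values here are from edgeR over all genes, the highest of these 6 being 0.0129.

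Of 5 other genes of the alkane and ester branches, 3 were tested and AT3G49210, described in the table as related to WSD1, rose by 0.43 ± 0.14 in PAC and 0.49 ± 0.14 in PAC+GA3. That call was lost in 7 of 20 alternatives in PAC and in 1 in PAC+GA3. Of 5 export genes, ABCG12 (CER5), a wax transporter of the plasma membrane, fell by 0.45 ± 0.10 and 0.63 ± 0.10 (edgeR, adjusted p = 0.00322 and 1.77e-04). LTPG1, a lipid transfer protein of the cell surface, fell by 0.30 ± 0.09 in PAC+GA3 and differed by -0.17 ± 0.09 in PAC (adjusted p = 0.0223 and 0.203). Of 13 regulators 11 were tested, with 1 lower in each medium. MYB96, an activator of wax genes under drought, fell by 0.52 ± 0.16 in PAC (adjusted p = 0.0240) and differed by -0.45 ± 0.17 in PAC+GA3 (adjusted p = 0.0584). MYB106, a regulator of cuticle and trichomes, differed by -0.61 ± 0.24 in PAC (adjusted p = 0.0770) and fell by 0.83 ± 0.24 in PAC+GA3 (adjusted p = 0.0166). Single alternatives ended the calls of LTPG1 in 4 of 20, of MYB96 in 5 of 20 and of MYB106 in 3 of 19.

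Genes of cutin, the polyester matrix that wax fills and covers, held large falls. Of 15 tested, 4 fell and 1 rose in PAC and 8 fell in PAC+GA3 (medians -0.15 and -0.42). Of all tested genes, 12.9% fell and 12.3% rose in PAC, and 13.6% fell in PAC+GA3. The GDSL lipase gene AT5G33370 fell by 1.50 ± 0.18 and 1.55 ± 0.17, from 9.48 ± 0.838 to 3.34 ± 0.585 CPM in PAC (SD, n = 3). CYP77A6, a cutin hydroxylase, fell by 0.94 ± 0.20 and 1.30 ± 0.20, and DCR, an acyltransferase of cutin assembly, by 0.55 ± 0.14 in both media. BDG, a cuticle hydrolase-fold protein, fell by 0.49 ± 0.10 in PAC+GA3 and differed by -0.15 ± 0.10 in PAC (edgeR, adjusted p = 0.00108 and 0.288). DCR in PAC stood at -0.25 without the 3 libraries of high ribosomal RNA share, where wild type in PAC kept only replicate 1. GA3 and the interaction called 0 genes of the elongation, branch, export, regulator and cutin lists.

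**Figure D4:**
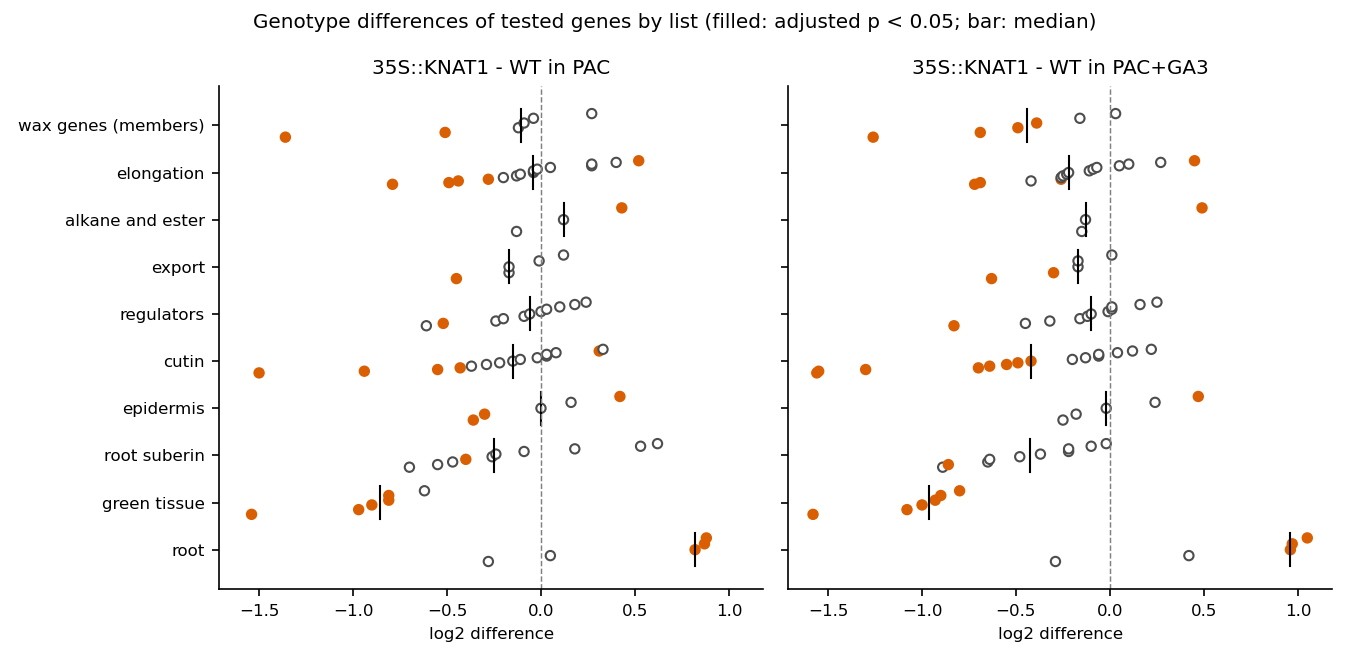
Log2 difference between 35S::KNAT1 and wild type for each tested gene, by list and medium; filled points have an adjusted p below 0.05 and the bars are list medians. Wax and cutin genes spread from above 0 to below -1, green tissue genes lie to the left with medians of -0.85 and -0.96, and root genes have medians of 0.82 and 0.96.

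Wax is made in the shoot epidermis, and in whole seedlings fewer cells of a type and less RNA per cell cannot be told apart. Green tissue markers were lower in 35S::KNAT1, with 5 of 6 called lower in PAC and 6 of 6 in PAC+GA3. Their summed level ranged from 34110 to 37830 CPM in wild type and from 17190 to 22840 in 35S::KNAT1 in PAC, and from 34090 to 45600 and from 17660 to 23320 in PAC+GA3. RBCS1A, a Rubisco small subunit, fell by 0.97 ± 0.12 and 1.08 ± 0.12, and LHCB2.1, a light-harvesting protein gene named here after its values were seen, fell by 1.54 ± 0.34 and 1.58 ± 0.34. CER1 differed by -1.36 in PAC and -1.26 in PAC+GA3. That fall was greater than those of RBCS1A and of the green list medians (-0.85 and -0.96), and smaller than that of LHCB2.1. Root markers had 3 of 5 higher in each medium, among them the tonoplast channel gene TIP2;3 by 0.88 ± 0.13 and 1.05 ± 0.13. The other 2, the root hair genes EXPA7 and RHD6, were not called in PAC without wild type in PAC replicate 2 (0.66, adjusted p = 0.0595, and 0.74, adjusted p = 0.0975). Without the 3 libraries of high ribosomal RNA share, where wild type in PAC kept only replicate 1, they stood at 0.61 and 0.84. The EXPA7 call in PAC was lost in 3 of 20 alternatives, and the RHD6 call in PAC was lost in 6 of 19 alternatives. Also named after their values were seen, PYK10, a root beta-glucosidase, differed by -0.28 ± 0.15 and -0.29 ± 0.15 and COBL9, a root hair gene, by 0.05 ± 0.22 and 0.42 ± 0.21, neither passing the test. The summed root level, most of it PYK10 (4797 ± 865 CPM in wild type in PAC, SD, n = 3), was 4101 to 5787 CPM in wild type and 3862 to 4097 in 35S::KNAT1 in PAC, without overlap. In PAC+GA3 the sums overlapped, at 3723 to 5885 and 3600 to 4151. The part of such tissue markers in the wax gene differences was not tested.

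Epidermal markers did not fall as a group: of 5 tested out of 6, 2 were lower and 1 higher in PAC and 0 lower and 1 higher in PAC+GA3 (medians -0.00 and -0.02). ATML1, a homeobox regulator of epidermal identity, rose by 0.42 ± 0.09 and 0.47 ± 0.09 (edgeR, adjusted p = 0.00265 and 0.00103). PDF1 and ACR4, both expressed in the outer cell layer, fell by 0.30 ± 0.11 and 0.36 ± 0.12 in PAC, calls that were lost in 10 and 8 of 20 alternatives. Summed epidermal levels ranged from 485 to 541 CPM in wild type and from 480.6 to 490.6 in 35S::KNAT1 in PAC, and from 523.8 to 588.7 and from 509.2 to 554.2 in PAC+GA3. ALE1 was the marker at 0 counts. Of 10 root suberin genes, 1 fell in each medium, FAR1 in PAC by 0.40 ± 0.14 (edgeR, adjusted p = 0.0493) and ABCG6 in PAC+GA3 by 0.86 ± 0.29 (adjusted p = 0.0330). The FAR1 call was lost in 12 of 20 alternatives and the ABCG6 call in 8 of 19. KNAT1 overexpression, the background of the line and the makeup of the seedlings differ together between the genotypes and cannot be told apart.

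Likeness to other genes was measured as the root mean square difference of centred log2(CPM + 0.5) values over the 12 libraries, among genes with a mean of at least 1 CPM. CER1 was most like the cutin-list gene AT5G33370 and AIG2 (both 0.14), while among the wax genes its nearest was CER2 (0.42) and its farthest CER4 (0.84). CER2 was nearest to MSR2 (0.07) and CAO (0.08), and CER3 to AT2G17760 (0.07) and ABCB2 (0.08). CER6 was nearest to AT2G31370 (0.09) and LP1 (0.10), and CER4 to AT5G38340 (0.19) and TRM26 (0.20). Within the family, CER3 lay 0.17 from both CER6 and KCS1 but 0.64 from CER1. These distances include the genotype differences given above, so they are no separate evidence, and those of CER4 also hold the spread of a low gene.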

How the data were processed

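Whole-seedling RNA was sequenced in 12 libraries, 3 in each of 4 groups taken from the sample titles. The authors deposited whole-number read counts, unscaled, with each library in its own column. Per the submitters' processing notes, the build was TAIR10 and the tools, named without roles, were TopHat2 2.1, cutadapt 1.8.3, edgeR 3.0.2, DESeq2 1.16.1 and FastQC 0.11.5. How reads were counted, and on which strand, is not given in the sources used here. Per the labels' protocols, RNA came from RNeasy or Trizol and libraries from the TruSeq RNA or TruSeq Stranded kit, since both of each are named.

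The counts went into edgeR 4.0.16 (R 4.3.3) with filterByExpr (minimum count 10), TMM scaling, and 1 quasi-likelihood fit with robust dispersions over all 12 libraries, with Benjamini-Hochberg adjustment over 19879 genes and a threshold of 0.05. The common biological coefficient of variation was 10.3%. The fit was tested on simulated data with changed genes drawn at random from those tested, for genotype in PAC. It called 28% of 100 genes changed by a log2 of 0.5 and 80% of 100 changed by 1, with 11 false calls. Only 100 genes per size were changed there, whereas 25.2% of genes were called for genotype in PAC in the data. With few changed genes the adjustment is stricter, so these shares do not carry over to the data or to the wax genes. The share of differences missed in the data was not measured. No wax gene was among the 49 rows with a blank or shared locus, and SHN1 was among the 9247 genes with no count. Replicates of a group differed by a chi-square per degree of freedom of 3.75 to 15.03, so no pair was a copy. CPM values are TMM-scaled, and a count of 0 was given the limit of 3 counts.

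Replicate numbers are shared between groups. Correlations of same-numbered deviations lay between 0.147 and 0.377 for the media within a genotype and between 0.116 and 0.273 for the genotypes in PAC, and between -0.028 and 0.150 for the genotypes in PAC+GA3. The numbers may therefore pair the samples in the first 3 comparisons. Correlations between libraries of unlike number were not computed, so pairing was not established.

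The wax genes and all lists were chosen with earlier results of these data known. Named were all 8 wax genes, up to 3 called genes of smallest p per list and genotype comparison, and the 2 most alike genes of each tested member, except for KCS1, for which they are not reported here. The gene ratios were added after the levels were seen, for all 15 pairs. Promoter windows came from RefSeq TAIR10.1; of 31900 loci matched to it, 17941 shared a start or end with the table. Alternatives covered scaling, filter, DESeq2 1.42.0, groups in the fit, a replicate block, each library left out and, added after seeing the data, the 3 libraries of high ribosomal RNA share left out. The last of these leaves only replicate 1 of wild type in PAC, and the counts of alternatives given here include it.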

Additional observations from a re-analysis of the deposited data

How the results depend on the processing

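Across 20 alternatives CER1 and CER2 were called lower in both genotype comparisons in every one. The number of wax genes called lower in PAC+GA3 was 4, and from 2 to 4 when single libraries were left out, with 2 without wild type in PAC+GA3 replicate 3 (CER6 -0.33, adjusted p = 0.0550, and KCS1 -0.48, adjusted p = 0.0986, edgeR). With the replicate block the wax genes called were 0, 0, 2, 4 and 0 in the 5 comparisons, as without it, while calls over all genes went from 9 to 94 and 22 to 81 for GA3 and from 5017 to 6169 and 5077 to 6297 for genotype. DESeq2 called 40 and 41 genes for GA3.

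Differences that turned sign had not passed the test before or after. Without the 3 libraries of high ribosomal RNA share these were CER2 at -0.12, CER4 at 0.23 and CER6 at -0.15 for GA3 in wild type, CER4 at -0.02 for genotype in PAC+GA3, and CER2 at 0.00 and CER3 at 0.04 for the interaction. That setting left only replicate 1 of wild type in PAC, so effect sizes alone are given. In log2, CER1 per CER3 stood at -1.11 and CER2 per CER6 at -0.33 for genotype, and KCS1 per CER6 at 0.34 for GA3. With 40 arrangements left, a ratio could hardly pass after adjustment. With no filter CER4 was at 0.00 for GA3 in wild type, and with total-count scaling CER3 was at 0.05 and KCS1 at 0.01 for genotype in PAC. The cause was not tested in the remaining cases.

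Leaving out single libraries gave, for GA3 in wild type, CER2 from -0.01 to 0.15, CER4 from -0.37 to 0.27 and CER6 from -0.10 to 0.14. For GA3 in 35S::KNAT1 it gave CER3 from -0.03 to 0.22 and KCS1 from -0.01 to 0.14. For genotype it gave CER3 from -0.20 to 0.06, KCS1 from -0.24 to 0.08 and ABCG6 from -0.46 to 0.08 in PAC, and CER4 from -0.25 to 0.39 in PAC+GA3. For the interaction it gave CER1 from -0.05 to 0.20, CER3 from -0.22 to 0.04 and CER4 from -0.51 to 0.12. Ratios ran, in log2, from -0.00 to 0.24 for CER1 per CER3 with GA3 and from -0.07 to 0.04 for KCS1 per CER6 with genotype. The ratios that passed numbered 2 to 5 for GA3 and 8 to 9 for genotype. Not run were the interaction on the compared groups alone, which needs all groups, and CER4 under the filter of 5 CPM in 3 libraries. Depth limits CER4, WSD1 and SHN1.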
